A study of Mus musculus with 13 samples.

Results

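Cystatin C and 9 lysosomal cathepsins were followed in single hypothalamic microglia of C57BL/6J mice on control chow or a high-fat diet (HFD). The members were the 10 genes Cst3, Ctss, Ctsd, Ctsb, Ctsz, Ctsl, Ctsh, Ctsa, Ctsc and Ctsf, taken by symbol from the 13 plate tables, and they were 10 of the 17280 genes kept. Microglia from the hypothalamus of male mice had been sorted as CD45lo CD11b+ cells, 1 to a well, and sequenced by CEL-Seq2, which tags each messenger molecule near its 3′ end with a random unique molecular identifier (UMI). The question was whether HFD, from 1 day to 16 weeks, changed their transcripts. The groups were wild-type mice on standard chow (labelled NC, called control here) and wild-type mice on HFD for 1 day, 3 days, 1 week, 4 weeks, 9 weeks or 16 weeks. No transgene, deletion or drug was shared by the groups, and the age of the mice was not given in the sources used here. Of 2496 wells, 1617 held at least 1500 transcripts and were kept as cells. Cells of 1 replicate on 1 plate were added up, and sums of at least 5 cells were kept, which gave 68 sums from 44 replicates, 28 of control and 40 of HFD. There were 6 sums after 1 day, 6 after 3 days, 7 after 1 week, 5 after 4 weeks, 6 after 9 weeks and 10 after 16 weeks. The labels do not say that a replicate is 1 mouse, so p-values measure only the spread between these sums, part of which may be technical.

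Cathepsins are proteases of the lysosome and endosome that are made as inactive proenzymes and mature in the acid interior. Most of them are cysteine proteases, Ctsd is an aspartic protease, and Ctsa is a serine carboxypeptidase. Cystatin C, the product of Cst3, is a secreted inhibitor that binds the active site of cysteine cathepsins. In the brain, microglia are a main source of cathepsin S, and the family digests proteins taken up by phagocytosis and prepares peptides for antigen presentation.

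The cells matched their label. Cx3cr1 and Csf1r were each found in 99.8% of cells, P2ry12 in 99.1% and Tmem119 in 96.7%. The 8 microglia markers together took 21335 to 35970 CPM in the 68 sums, where CPM is a gene's transcripts scaled to the same total in every sum. The 7 measured genes of the border-associated macrophage list summed to 230 to 985 CPM, most of it Stab1. The median cell held 2840 transcripts, with a range of 1510 to 19948. Cells with at least 5 UMIs of MHC class II genes made up 0.554% of control cells, 9.92% after 3 days, 8.72% after 1 week and 6.25% after 4 weeks. At the other lengths the share was at most 0.866%. These cells came mainly from plates 4 and 5, and plate 5 held no control sum. Cells with at least 3 UMIs of markers of another cell type were 2.35% of control cells, 0.621% after 1 day, 8.26% after 3 days, 5.23% after 1 week, 7.81% after 4 weeks, 6.10% after 9 weeks and 2.60% after 16 weeks. Both shares were counted without thinning, so they depend on depth. Median transcripts per cell were 2750 in control, 2395 after 1 day, 3619 after 3 days and 2909 after 1 week. At 4, 9 and 16 weeks they were 3042, 3678 and 2873. The part of depth in these shares was not tested.

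Of the 17280 genes kept, Cst3 had the most transcripts in these cells, with 128912 UMIs against 126057 for the next, the predicted gene Gm21738. Over all sums it reached a median of 26449 CPM (range 15504 to 38939), with a mean of 79.9 UMIs per cell and at least 1 UMI in every cell of the sums. Each transcript was counted once at its 3′ end, so levels of different genes were compared with no division by length. The inhibitor was thus present at more transcripts than all 9 cathepsins together, which took 1.63% of UMIs against 4.13% for the 10 members.

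Among the proteases, Ctss, Ctsd and Ctsb stood above the rest. Ctss, an endopeptidase that remains active at neutral pH and trims the invariant chain of MHC class II, ranked 8 of the genes kept with a median of 6643 CPM (3728 to 10767). Ctsd, the main aspartic protease of the lysosome, ranked 17 with 3821 CPM (2559 to 5422). Ctsb, an endopeptidase that also removes dipeptides from the carboxyl end, ranked 37 with 1981 CPM (1197 to 3276). Their UMIs were found in 99.7%, 98.8% and 96.3% of cells.

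The other 6 cathepsins were less abundant. Ctsz, a carboxypeptidase, had a median of 1064 CPM (523 to 1461), and Ctsl, an endopeptidase, had 724 CPM (312 to 1246). Ctsh, an aminopeptidase, had 673 CPM (415 to 1169). Ctsa, which also protects lysosomal β-galactosidase and neuraminidase from degradation, had 611 CPM (353 to 968). Ctsc, or dipeptidyl peptidase I, which activates granule serine proteases, had 594 CPM (312 to 1040). Ctsf, a further endopeptidase, was rare, with 112 CPM (33.5 to 273) and a UMI in 29.4% of cells, against 75.4% to 89.8% for the other 5 of these genes.

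The order of the levels was stable at the top and not in the middle. Cst3 exceeded Ctss in 68 of 68 sums, Ctss exceeded Ctsd in 67, Ctsd exceeded Ctsb in 68 and Ctsb exceeded Ctsz in 67. Ctsz exceeded Ctsl in 60 sums. Neighbours below that did not differ beyond their spread, with Ctsl above Ctsh in 39 sums, Ctsh above Ctsa in 44 and Ctsa above Ctsc in 30. Ctsc exceeded Ctsf in 68 of 68 sums.

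**Figure D1:**
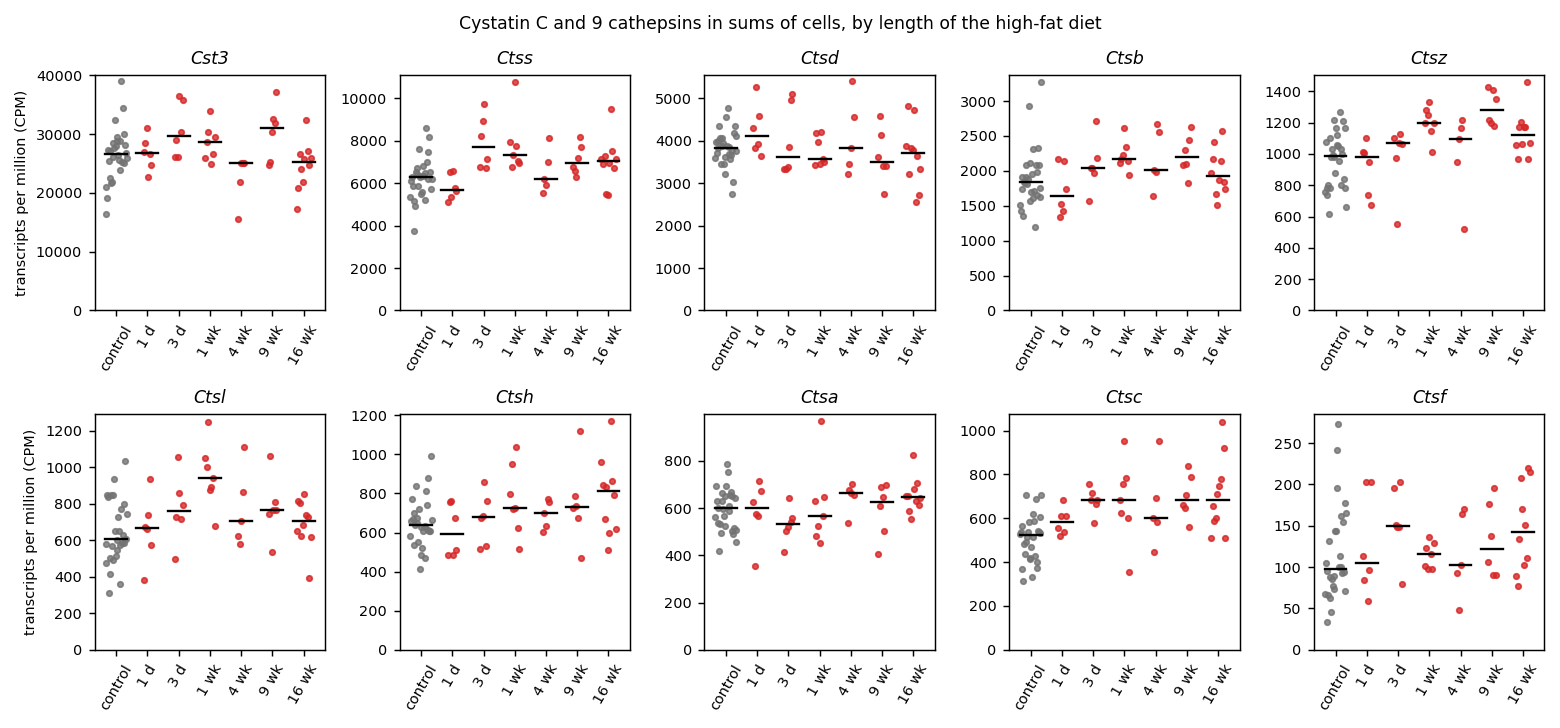
Level of each member in CPM (linear axis from 0) in the 68 sums, 1 point per sum, grouped by control (grey) and length of HFD (red), with a line at the median. The groups overlap for every gene when plates are pooled, and Cst3 sits more than an order above Ctsc in each group.

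All members lie on autosomes of GRCm38. Cst3 is at chr2:148871722-148875692 (minus strand), Ctss at chr3:95526786-95556403 (plus), Ctsd at chr7:142375911-142388038 (minus) and Ctsb at chr14:63122462-63145923 (plus). Ctsz is at chr2:174427493-174439039 (minus), Ctsl at chr13:64359337-64370890 (minus), Ctsh at chr9:90054152-90076089 (plus) and Ctsa at chr2:164832873-164841032 (plus). Ctsc is at chr7:88278085-88310888 (plus) and Ctsf at chr19:4855130-4860918 (plus). Counts of 3 members could be shared with a gene annotated on the same strand, Gm49369 for Ctsd and the processed pseudogenes Gm49230 for Ctsl and Hmgb1-ps5 for Ctss. Genes on the opposite strand overlap Ctsa (Neurl2 and Pltp), Ctsb (Fdft1), Ctsc (Gm26522), Ctsl (Gm47123) and Ctsz (Nelfcd), and the strand setting of the counting was not given in the sources used here. No annotated gene overlaps Cst3, Ctsf or Ctsh.

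RefSeq promoter windows of 300 bases (GRCm38.p6) were given for 8 members, with 2 starts for Ctsa and no entry for Ctsb and Ctsh. Windows of 4 members are shown because these genes carry the levels, the diet differences and the co-variation described here. Capitals mark TCACGTG, the E-box of the type bound by TFEB, and GAGGAA, the core of PU.1 sites, each searched on both strands.
Cst3, chr2:148875463-148875762, minus strand: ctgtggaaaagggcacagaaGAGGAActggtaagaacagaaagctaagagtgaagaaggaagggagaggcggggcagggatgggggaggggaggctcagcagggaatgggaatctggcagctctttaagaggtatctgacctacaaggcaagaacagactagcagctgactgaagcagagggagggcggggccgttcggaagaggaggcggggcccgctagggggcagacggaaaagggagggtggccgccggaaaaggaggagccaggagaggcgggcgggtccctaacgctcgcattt
Ctss, chr3:95526536-95526835, plus strand: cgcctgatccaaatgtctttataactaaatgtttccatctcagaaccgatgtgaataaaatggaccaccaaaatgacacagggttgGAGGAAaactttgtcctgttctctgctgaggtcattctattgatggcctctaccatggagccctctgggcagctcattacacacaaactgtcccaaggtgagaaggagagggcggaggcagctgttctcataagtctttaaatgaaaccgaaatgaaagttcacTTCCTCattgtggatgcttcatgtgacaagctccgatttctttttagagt
Ctsd, chr7:142387778-142388077, minus strand: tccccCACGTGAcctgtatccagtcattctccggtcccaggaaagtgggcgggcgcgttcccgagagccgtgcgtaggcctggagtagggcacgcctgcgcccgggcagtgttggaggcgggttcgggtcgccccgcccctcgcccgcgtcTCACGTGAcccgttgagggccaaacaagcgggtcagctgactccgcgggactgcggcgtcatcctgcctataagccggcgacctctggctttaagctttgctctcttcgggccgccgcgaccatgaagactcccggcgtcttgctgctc
Ctsc, chr7:88277835-88278134, plus strand: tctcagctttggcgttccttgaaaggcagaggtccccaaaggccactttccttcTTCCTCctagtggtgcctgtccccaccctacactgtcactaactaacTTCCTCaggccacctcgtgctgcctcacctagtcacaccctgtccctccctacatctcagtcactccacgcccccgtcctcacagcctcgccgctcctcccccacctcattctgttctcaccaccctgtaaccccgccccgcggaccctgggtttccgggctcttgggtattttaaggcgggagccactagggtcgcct
TCACGTG was found in 2 of the 9 member windows, those of Ctsd and of the second Ctsa start at chr2:164833523-164833822, against 3.77% of all 32851 windows. GAGGAA was found in 3 of 9, those of Cst3, Ctss and Ctsc, against 28.3% of all windows. TATAAA, the TATA box, searched in the direction of the gene, was in none of the 9 and in 8.32% of all. A match is a description of letters and not evidence of binding.

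HFD was compared with control within plates, in 1 edgeR fit per length with the plate as a block, and no member passed an adjusted p of 0.05 at any length. The background was as low, since 0.0% of tested genes were called after 1 day, 0.0% after 3 days, 0.121% after 1 week, 0.0% after 4 weeks, 0.0661% after 9 weeks and 0.0% after 16 weeks. All 10 members were tested at each length, except that Ctsf did not pass the filter on low counts after 16 weeks. The genes called were Gm42418 and H2-Ab1 after 1 week and Jun after 9 weeks, none of them a member or in the lysosomal list described here. DESeq2 called no gene at any length.

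The members' estimates lay a little above 0. Their median log2 fold change was 0.06 after 1 day, 0.10 after 3 days, 0.03 after 1 week, 0.09 after 4 weeks, 0.22 after 9 weeks and 0.14 after 16 weeks. In a fit of sums added per replicate over linked plates, the medians were 0.07, 0.12, 0.07, 0.18, 0.20 and 0.09 in the same order. The median over all tested genes was between -0.01 and 0.01 in each comparison of either fit. At an unadjusted p under 0.05, no member was past the threshold after 1 day (5.5% of all genes), 3 days (6.81%), 1 week (5.21%) or 4 weeks (3.28%). After 9 weeks 5 of 10 members were, all above control (7.33% of all genes, 3.7% in that direction). After 16 weeks 3 of 9 were, again all above control (6.97% of all genes, 4.38% in that direction). All 28 control sums entered each fit, so the comparisons are not independent of each other. Those at 9 and 16 weeks also share the 12 control sums of plates 10, 11 and 12 as controls of the same plate. In the same way, the 1 control sum of plate 4 serves 3 days, 1 week and 4 weeks. The 4 control sums of plate 13 serve 3 days, 1 week and 16 weeks. The 6 sums after 9 weeks came from 2 replicates and the 10 after 16 weeks from 5. In the fit of sums added per replicate, 1 of 10 members, Ctsc, was past the unadjusted threshold at each of these lengths (3.92% and 4.19% of all genes).

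**Figure D2:**
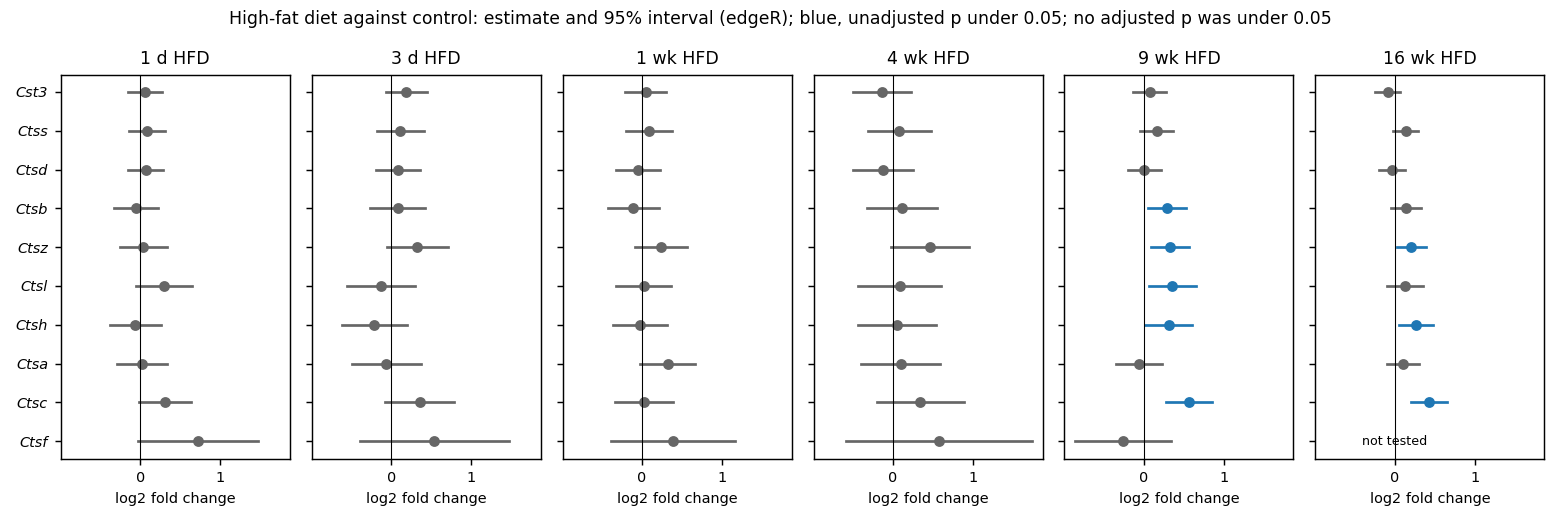
Log2 fold change of each member for HFD against control (horizontal axis), with its 95% interval from edgeR, 1 panel per length of HFD. Blue marks an unadjusted p under 0.05, which 5 members had after 9 weeks and 3 after 16 weeks, while no adjusted p was under 0.05. Each sum is counted here, and when sums were added per replicate Ctsc alone had such a p at these lengths.

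Ctsc had the lowest p of the members at 9 and 16 weeks. After 9 weeks its 6 sums held 647 and 660 CPM on plate 10, 705 and 840 CPM on plate 11, and 560 and 787 CPM on plate 12. The 4 control sums of each plate averaged 409, 538 and 501 CPM. All 6 HFD sums lay above the control mean of their plate, and the groups did not overlap on plates 10 and 11. The log2 fold change was 0.57 (95% interval 0.28 to 0.86, edgeR adjusted p = 0.141), second of 1514 genes by p.

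After 16 weeks Ctsc followed the same direction on most plates. The sums held 588 and 601 CPM on plate 10, 708 and 749 CPM on plate 11, and 780 and 1040 CPM on plate 12, each pair above all 4 control sums. On plate 3 the single HFD sum held 657 CPM against 566 in the control sum, and on plate 2 it held 508 against 539. On plate 13 the sums of 510 and 922 CPM spanned the 4 controls, which averaged 595 CPM. In all, 8 of 10 sums exceeded the control mean of their plate, and the log2 fold change was 0.43 (0.20 to 0.65, edgeR adjusted p = 0.12), second of 1233 genes.

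The Ctsc differences were further from the threshold when the unit was the replicate. With the sums of a replicate on linked plates added, the log2 fold change was 0.56 after 9 weeks (edgeR adjusted p = 0.668) and 0.41 after 16 weeks (adjusted p = 0.775). An exact two-sided permutation of the diets within plates gave p = 0.00178 after 9 weeks and 0.00076 after 16 weeks, or 0.256 and 0.196 adjusted over all genes. With the sums of a replicate kept together, the exact permutation p was 0.0667 after 9 weeks, the smallest that 2 HFD and 4 control replicates allow, and 0.0133 after 16 weeks (adjusted 0.721 and 0.658).

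Leaving out single replicates changed the call. Without control replicate M1 of plates 10, 11 and 12, Ctsc passed after 9 weeks (log2 fold change 0.67, edgeR adjusted p = 0.0183). Without HFD replicate L4 of plates 2 and 3 it passed after 16 weeks (0.55, adjusted p = 0.0426). Over all alternatives the adjusted p ran from 0.0183 to 0.925 after 9 weeks and from 0.0426 to 0.932 after 16 weeks. Without the cells with at least 5 MHC class II UMIs, the estimates were 0.57 and 0.45, and without those with markers of another cell type 0.57 and 0.45 as well. The log2 level of Ctsc in 1 replicate had a median SD of 0.27 over these 3 plates, which includes shifts between plates. Between control replicates on 1 plate the median SD was 0.24, with no such shift, so these SDs are not like for like.

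At the shorter lengths the Ctsc intervals included 0 when each sum was counted. The log2 fold change was 0.31 after 1 day (-0.02 to 0.64), 0.36 after 3 days (-0.08 to 0.79) and 0.34 after 4 weeks (-0.20 to 0.89). With the sums of a replicate on linked plates added, the interval after 1 day lay just above 0, at 0.00124 to 0.636 (0.32, edgeR adjusted p = 0.744). Each HFD sum of these lengths on a plate with a control, 6, 4 and 3 in number, lay above the control mean of their plate. After 3 days plate 4 held 1 control sum, of 7 cells, at 369 CPM, against 681 and 754 CPM in the HFD sums. After 1 week 4 of 5 sums, on 3 of 4 plates, lay above control, with 623 and 682 CPM against that same control sum on plate 4, 784 against 708 on plate 7 and 601 against 583 on plate 9. On plate 13 the sum of 356 CPM lay below the control mean of 595 CPM. The estimate was 0.02 (-0.34 to 0.39), and with no plate block it was 0.47 (edgeR adjusted p = 0.0954). Without the cells with at least 5 MHC class II UMIs the estimates were 0.26 after 3 days, 0.01 after 1 week and 0.38 after 4 weeks. Without cells with markers of another cell type they were 0.29, -0.02 and 0.35.

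**Figure D3:**
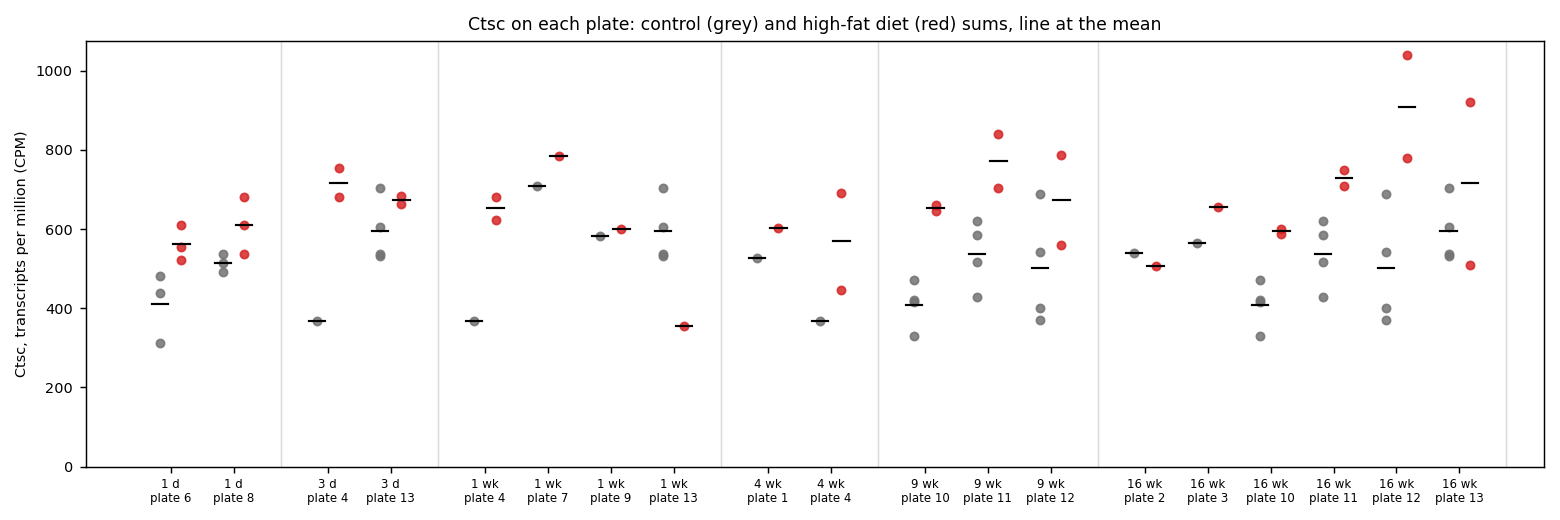
Ctsc in CPM (linear axis from 0) on each plate that held both diets, control sums in grey and HFD sums in red, with a line at the mean of each. The 9-week and 16-week HFD sums of plates 10 and 11 lie above all 4 controls of their plate, and the 1-week sum of plate 13 lies below its controls while those of the other 3 plates lie above.

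Of the exopeptidases, Ctsz and Ctsh had intervals above 0 at the late lengths when each sum was counted. With the sums of a replicate on linked plates added, these intervals included 0, at -0.01 to 0.63 and -0.05 to 0.41 for Ctsz after 9 and 16 weeks, and -0.06 to 0.65 and -0.01 to 0.47 for Ctsh. After 9 weeks Ctsz ranged from 1176 to 1428 CPM (median 1282) in 6 sums, and each exceeded the control mean of its plate, although the groups overlapped on all 3 plates. Its log2 fold change was 0.33 (0.09 to 0.56, edgeR adjusted p = 0.37), and after 16 weeks it was 0.20 (0.02 to 0.39, adjusted p = 0.664). After 4 weeks the 3 sums on plates with controls held 948, 1098 and 1164 CPM, and each exceeded the 1 control sum of its plate, at 756 or 738 CPM (0.46, -0.03 to 0.95). After 1 day Ctsz was split by plate, above all 3 controls in 3 of 3 sums on plate 6 and below all 3 controls in 3 of 3 sums on plate 8. Its estimate was 0.04 (-0.26 to 0.33).

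Ctsh ranged from 472 to 1120 CPM (median 730) after 9 weeks and from 511 to 1169 CPM (median 811) after 16 weeks. The control sums on the same plates had medians of 620 and 628 CPM and overlapped with both when plates were pooled. Within plates, both 9-week sums lay above all 4 controls on plate 10 (mean 754 against 512 CPM) and on plate 11 (705 against 585 CPM), but not on plate 12. After 16 weeks the sums lay above all controls on plates 2, 3 and 10, and the groups overlapped on plates 11, 12 and 13. The log2 fold change was 0.31 (0.02 to 0.60, edgeR adjusted p = 0.628) and 0.27 (0.05 to 0.48, adjusted p = 0.585). Ctsh estimates at the 4 shorter lengths were between -0.21 and 0.05, with intervals that included 0.

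Of the endopeptidases, Ctsb and Ctsl were above control after 9 weeks at an unadjusted p only. Ctsb ranged from 1831 to 2631 CPM (median 2199) against 1197 to 2323 CPM (median 1837) in the 12 control sums, with a log2 fold change of 0.29 (0.06 to 0.52, edgeR adjusted p = 0.475). Ctsl ranged from 536 to 1059 CPM (median 765) against 361 to 799 CPM (median 616), with 0.35 (0.06 to 0.65, adjusted p = 0.499). With the sums of a replicate added, these intervals also included 0, at -0.07 to 0.57 and -0.04 to 0.68. After 16 weeks the estimates were 0.14 for Ctsb and 0.13 for Ctsl, and both intervals included 0. After 1 week the Ctsl estimate was 0.02 (-0.33 to 0.36) within plates. With no plate block it was 0.61 (adjusted p = 0.0378), the only alternative that called Ctsl.

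Estimates of Cst3, Ctss and Ctsd were small at every length. Cst3 estimates ran from -0.14 after 4 weeks (-0.50 to 0.23) to 0.19 after 3 days (-0.07 to 0.45). After 16 weeks, the comparison with most sums, its estimate was -0.09 (-0.24 to 0.06), so a fold change outside 0.844 to 1.04 lay beyond the 95% interval. Ctss estimates ran from 0.08 to 0.16, and its 6 sums after 9 weeks each exceeded the control mean of their plate (0.16, -0.05 to 0.37). Ctsd estimates ran from -0.12 to 0.09, and its value after 9 weeks was 0.00 (-0.20 to 0.21).

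Ctsa and Ctsf gave no call either. Ctsa estimates ran from -0.06 to 0.32, and the highest value, after 1 week, included a sum of 968 CPM on plate 7 (-0.03 to 0.67). Ctsf estimates ran from -0.26 after 9 weeks (-0.87 to 0.34) to 0.72 after 1 day (-0.03 to 1.47), and every interval included 0 when each sum was counted. In the fit of sums added per replicate, the interval after 1 day was 0.00534 to 1.47 (0.74, edgeR adjusted p = 0.744). The widest interval, after 4 weeks, spanned -0.59 to 1.74.

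The share of cells with a UMI gave a similar picture. Cells were thinned to 1000 UMIs each, since the share depends on depth, and lengths were permuted exactly among the sums of each plate. The counts of members with an unadjusted p under 0.05 were 0 after 1 day (4.85% of all genes), 0 after 3 days (4.6%), 0 after 1 week (4.84%) and 0 after 4 weeks (0.0%, where the smallest p possible was 0.167). After 9 weeks the count was 2 of 10 (6.41% of all genes) and after 16 weeks 1 of 9 (6.65%). Ctsc was found in 44.7% of thinned cells after 9 weeks and in 29.4% of control cells, a difference of 15.3 percentage points (exact permutation p = 0.000889, adjusted over all genes 0.269). Ctsl differed by 9.27 points after 9 weeks (exact permutation p = 0.0261, adjusted 0.679), and Ctsc by 9.45 points after 16 weeks (exact permutation p = 0.0259, adjusted 0.673). With the sums of a replicate kept together no member was under 0.05 at any length, but the smallest p possible was then 0.0667 after 9 weeks and 0.167 after 4 weeks, so no member could have passed there. Unthinned, Ctsc was found in 69.1% of all control cells and in 85.4% of 9-week cells, whose median transcript counts were 2750 and 3678.

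The wider lysosomal list held 83 genes, of which 34 to 41 passed the filter at each length, and 0 were called at an adjusted p of 0.05 in edgeR at any length. At an unadjusted p under 0.05, 1 was above and 2 below control after 1 day, 0 and 1 after 3 days, 1 and 0 after 1 week, 1 and 0 after 4 weeks, 2 and 1 after 9 weeks, and 2 and 0 after 16 weeks. Over all genes tested the shares under that threshold, in either direction, were 5.5%, 6.81%, 5.21%, 3.28%, 7.33% and 6.97% in the same order, so these few genes of the list are no result about it. The medians of the list were between -0.02 and 0.11.

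The genes of the list with the lowest p differed between the lengths. After 1 day they were Atp6ap1, an accessory subunit of the proton pump (-0.58, edgeR adjusted p = 0.669), and the membrane protein Lamp1 (-0.38, adjusted p = 0.669). After 3 days the pump subunit Atp6v1f (0.84) was among them, and after 1 week they were Tmem55b (0.64) and Atp6v0b (-0.38). After 4 weeks they were Atp6v1c1 (1.32) and the tetraspanin Cd63 (0.67). Cd63 was again among them after 9 weeks (0.63, adjusted p = 0.426), with the sulfatase Arsb (0.52). After 16 weeks they were the sorting receptor Sort1 (0.51) and the cholesterol carrier Npc2 (0.28). All these adjusted p-values were at or above 0.426.

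Between cells, Cst3 and Ctss varied together more than any other pair of members. Correlations were computed over 1613 cells thinned to 1000 UMIs, on log2(UMIs + 1) centred within each sum, and are descriptions, since cells share libraries. Ctsf was too rare to enter, which left 36 pairs of 9 members among 792 genes. Pearson's r of Cst3 and Ctss was 0.37, 9th of 313236 gene pairs, and each was the gene most correlated with the other. Within single plates it ran from 0.16 to 0.57 and was positive in 13 of 13. In the 27 sums of at least 20 cells it ran from 0.15 to 0.77.

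A further pair was formed by Ctsb and Ctsd, with r = 0.20, each again the other's most correlated gene. Cst3 correlated with Ctsd (0.20) and with Ctsb (0.18), and Ctsb with Ctss (0.18). These 4 pairs were positive within all 13 plates, with medians of 0.23, 0.22, 0.16 and 0.18. In the 27 sums of at least 20 cells they were less even, since Ctsb with Ctsd was positive in 24, Cst3 with Ctsd in 23, Cst3 with Ctsb in 23 and Ctsb with Ctss in 22, with values from -0.39 to 0.54. Over the 231 cells of the 16-week group, Cst3 with Ctsd was at -0.01. Ctsd with Ctss was lower, at 0.10, and positive in 12 of 13 plates.

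Over the 36 pairs, 33 were positive with a median of 0.07, and 19 exceeded 0.0709, the 99th percentile of all pairs, whose median was 0.0015. Abundant genes give higher correlations in thinned counts, and these pairs were not matched for level. The pairs below 0 were Ctsl with Ctsz, at 0.00 to 2 decimals, Ctsd with Ctsh (-0.03) and Ctsc with Ctsd (-0.04). Ctsc was most correlated with Zfp36 (0.11), B2m (0.10) and Ctss (0.10).

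**Figure D4:**
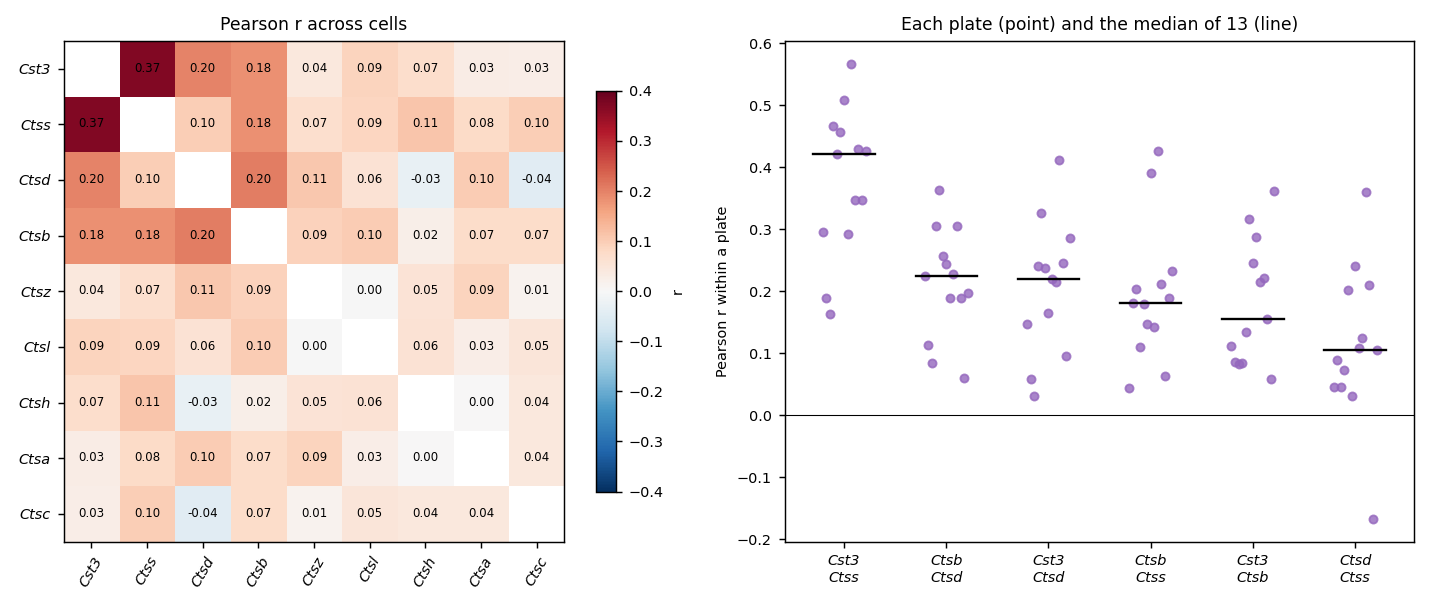
Left, Pearson r of each pair of 9 members over 1613 cells (colour and printed value); right, r within each of the 13 plates for 6 pairs, with a line at the median. Cst3 with Ctss has the highest r, 0.37, and 5 of the 6 pairs are above 0 in all 13 plates.

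Outside the family, complement genes and B2m were among the genes nearest to Cst3, Ctss, Ctsd or Ctsb. Among those nearest to Cst3 after Ctss were the complement gene C1qb (0.33), Sparc (0.32) and C1qc (0.32). Ctss came with B2m (0.29), the light chain of MHC class I, C1qc (0.27) and C1qb (0.23). Ctsd came with C1qa (0.19) and C1qc (0.19), and Ctsb with B2m (0.17) and Itm2b (0.15). At the opposite end stood the predicted genes Gm10717 and Gm21738, both at -0.19 with Cst3, and the nuclear RNA Malat1, at -0.18 with Ctss. The share of transcripts in the genes that the authors removed had r = -0.24 with Cst3 and -0.16 with Ctss. After regression on depth, the mitochondrial share, that share, Malat1, Gm10717 and Gm21738, the r of Cst3 and Ctss was 0.33. Marker lists of cell types were not in that regression. With the microglia list r was 0.44 for Cst3 and 0.25 for Ctss, and with the monocyte list -0.17 and -0.04. With the MHC class II genes it was -0.16 and -0.003.

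Cst3 also varied between cells beyond counting error. Within sums, the variance of its thinned counts was 4.59 times the mean, 8th of 792 genes, where counting alone gives 1. The ratio was 1.93 for Ctss, 1.74 for Ctsd, 1.49 for Ctsb and 1.25 for Ctsl, against a median of 1.12 over the 792 genes. The other 4 members were between 1.11 and 1.17. The ratio grows with abundance. The coefficient of variation left after the counting part, which is relative to the mean, was 0.38 for Cst3 and 0.38 for Ctss. It was higher for 6 members, at 0.44 for Ctsd, 0.46 for Ctsh, 0.47 for Ctsa, 0.50 for Ctsb, 0.53 for Ctsc and 0.60 for Ctsl, and lower for Ctsz, at 0.33.

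**Figure D5:**
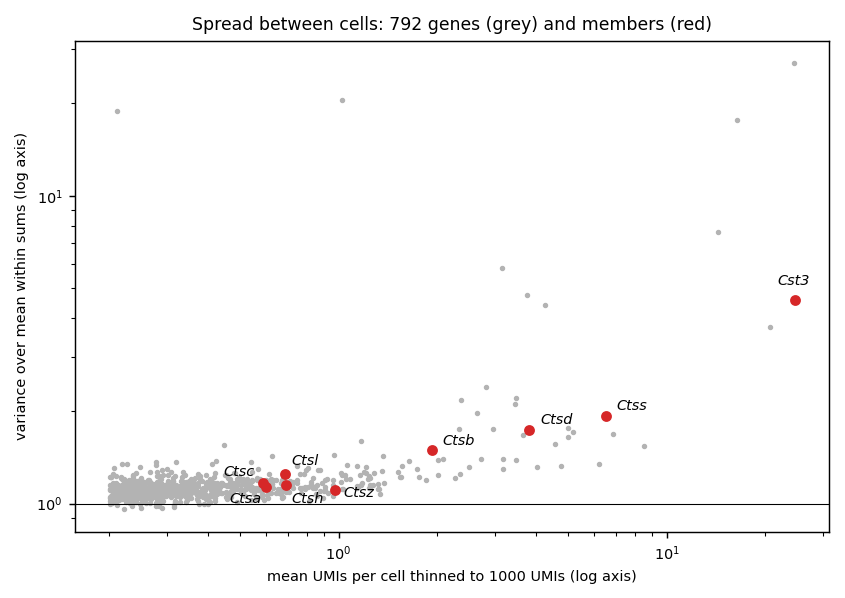
Variance over mean of thinned UMI counts within sums against the mean UMIs per cell, both on log axes, for 792 genes (grey) and 9 members (red). The line at 1 is what counting alone gives, and Cst3, Ctss, Ctsd and Ctsb lie above it at 1.49 to 4.59.

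Cells rich in MHC class II transcripts, known from antigen-presenting cells, differed in some members. On plates 4 and 5, 33 of 197 cells held at least 5 UMIs of these genes, counted without thinning. Their median was 6069 transcripts, against 4320 in the other 164 cells, of which 130 held 1 to 4 such UMIs. The part of depth in this class was not tested. In the 5 HFD replicates with at least 2 cells at or over the cut of 5, 32 such cells were compared with the 132 other cells of their replicate. The comparison was chosen after the data had been seen. Ctsd was lower in these cells in 5 of 5 replicates, which held 3, 5, 12, 10 and 2 of them. Ctsd was at 1768, 2438, 3596, 2239 and 1949 CPM against 4959, 4672, 4255, 3773 and 3661 CPM. Its log2 difference was -0.78 (-1.34 to -0.23, edgeR adjusted p = 0.151). Ctsl differed by -0.69 (-1.26 to -0.13, adjusted p = 0.249) and Ctsc by 0.45 (-0.10 to 1.01, adjusted p = 0.534). Ctsc was at 304, 867, 786, 1265 and 1247 CPM against 560, 822, 701, 542 and 593 CPM in the same replicates. It was thus lower in replicate M20 and higher in the others. No member was called, where 1.44% of all genes were, and 2 of 10 had an unadjusted p under 0.05, where 12.6% of all genes had one.

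With at least 20 UMIs required, 14 cells remained, of which 13 in 3 replicates entered against the 71 cells of these replicates with under 5. Cells with between 5 and 20 were in neither group, which widens the contrast. In this comparison 3 of 9 members were called, where 7.11% of all genes were. Ctsd was at 965, 2480 and 1333 CPM, in only 2, 4 and 7 cells, against 4672, 4255 and 3773 CPM in the cells with under 5. Its log2 difference was -1.32 (-1.92 to -0.71, edgeR adjusted p = 0.00102). The minimum of 5 cells per sum was not applied in either comparison of MHC class II cells. Ctsl differed by -1.20 (-1.93 to -0.47, adjusted p = 0.0234). Ctsc differed by 1.08 (0.47 to 1.68, adjusted p = 0.0123), at 1286, 1273 and 1367 CPM against 822, 701 and 542 CPM. Ctss differed by -0.08 (-0.72 to 0.56) and Cst3 by -0.42 (-1.18 to 0.35). The same cells held more Ccr2 (8.31), a monocyte receptor, and Apoe (2.34), and less of the microglia genes P2ry12 (-0.92) and Sall1 (-1.79), on the log2 scale. A different mix of cell types and a different state of microglia cannot be told apart in these values.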

How the data were processed

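The authors ran the snakePipes pipeline for single cells, with Cutadapt for trimming, STAR for mapping to the mm10 genome and featureCounts for counting, and then RaceID3. The deposited plate tables hold an estimated count per gene and well, in which UMIs were corrected for collisions among 4096 tags and not normalized. All values above 0 were whole UMIs after that correction was undone, within 0.001. A table of wells gave diet, length and replicate. GEO's labels carry 1 treatment value for all 13 plates and name 3 days as the only length of HFD, so every other length rests on the table of wells. The 132 wells it marks as 7 days were merged with the 192 marked as 1 week. The 17280 genes were those of the filtered table, and 447 genes (22.3% of transcripts) that the authors removed were left out. Its 843 columns of per-cell values were not used. Doublets were not called, because each well received a single sorted cell, and no cell had the same counts as another.

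Estimated counts were summed per replicate and plate (22774 to 219199 transcripts), rounded and fitted by edgeR 4.0.16 in R 4.3.3 (quasi-likelihood test, TMM, filterByExpr, plate as a block, all control sums with 1 length per fit), with Benjamini-Hochberg adjustment over all genes tested. DESeq2 1.42.0 was the alternative tool. Cells with at least 5 MHC class II UMIs were compared with the rest of their replicate by edgeR with the replicate as a term. Permutation tests were exact and two-sided, in python 3.11.15 with pandas 2.3.3, scipy 1.17.1 and numpy 2.4.6. The fits were tested on simulated counts. The 4 cells in sums of under 5 cells were left out. Intervals cover 95%. Named beside the members were, per length, the 2 genes of the lysosomal list with the lowest p, and the 5 genes most correlated with Cst3, Ctss, Ctsd and Ctsb, some of which are not reported here. The 3 nearest genes of Ctsc, the opposite genes and the genes of the MHC class II comparison were named after their values were seen. The members and lists were chosen with earlier results of these data known.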

Additional observations from a re-analysis of the deposited data

Results flagged for a closer look

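In 6 of 60 sets of 4 to 10 sums of 1 gene and length, 1 sum stood far from the others by Dixon's criterion, which chance meets in about 1 of 20 sets. Of the low sums, Ctsz after 3 days was at 550 CPM in replicate M24 on plate 5, with the next sum at 975 CPM, and Ctsl after 16 weeks was at 395 CPM in replicate M10 on plate 13, with the next at 617 CPM. Of the high sums, Ctsa after 1 week was at 968 CPM in replicate M2 on plate 7, with the next at 647 CPM. Ctss after 1 week was at 10767 CPM in replicate M23 on plate 5, with the next at 7925 CPM. After 16 weeks Ctss was at 9518 CPM in replicate M5 (next 7494 CPM) and Ctsz at 1461 CPM in replicate M6 (next 1202 CPM), both on plate 12. The part of any plate or cell mix in these values was not tested.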

How the results depend on the processing

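Over 1572 member fits under alternatives, 3 passed an adjusted p of 0.05, Ctsc without control replicate M1 after 9 weeks, Ctsc without replicate L4 after 16 weeks, and Ctsl after 1 week with no plate block, and 91 changed sign. The number of members called was therefore 1 in place of 0 with no plate block after 1 week, and 0 to 1 with replicates left out after 9 and 16 weeks. The number of genes called moved more. With no filter on low counts it was 6 after 3 days, 7 after 1 week, 9 after 4 weeks, 3 after 9 weeks and 4 after 16 weeks. With no plate block it was 2 after 1 day, 15 after 3 days, 6 after 1 week, 8 after 4 weeks and 0 after 9 weeks. With the cells of a length on a plate summed it was 4, 4 and 5 after 3 days, 1 week and 4 weeks, and with replicates summed over linked plates 4, 5 and 6. After 1 week it was 0 with DESeq2, 1 model over all lengths, at least 1000 or 2000 transcripts per cell, without cells with markers of other types, without control replicates of another week mark (a number of weeks in the cell names whose meaning was not given), or without plates 7 and 9. It was 1 there without cells of at least 5 MHC class II UMIs or with library sizes over all genes, 4 with at least 10 cells per sum, and 5 without plates 4 and 5. After 4 weeks it was 2 with at least 1000 transcripts, 1 with at least 10 cells per sum or without control replicates of another week mark, and 2 without the plates of L replicates. After 9 weeks it was 0 with DESeq2 and with 1 model. With each replicate left out it ran from 0 to 0 after 1 day, 0 to 1 after 3 days, 0 to 5 after 1 week, 0 to 2 after 4 weeks, 0 to 3 after 9 weeks and 0 to 2 after 16 weeks. The share of cells with Ctsf after 1 day turned from -1.41 to 9.28 percentage points when cells were thinned to 1500 UMIs. Of 819 such shares under alternatives, 35 crossed an unadjusted p of 0.05. The correlation of Cst3 and Ctss ran from 0.33 to 0.48. The cause of these moves was not tested. Settings that leave out plates or week marks, the minimum of 20 MHC class II UMIs, kept-together replicates and the regression were chosen after seeing the data. No paired analysis was possible because the labels give all 13 samples 1 group and no replicate number occurs in both diets of a plate, so the diets were matched by plate alone, as the block of the fits.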
